A study of Homo sapiens with 6 samples.

Results

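The genes described here are 10 of the 33900 genes in the table, chosen by name: the transcription factor gene NFE2L2, its repressor gene KEAP1, the antioxidant enzyme genes HMOX1, NQO1, GCLC, GCLM, TXNRD1 and SRXN1, and the ferritin genes FTH1 and FTL. They were compared between LX-2 cells, an established wild-type line of human hepatic stellate cells, treated with recombinant human Sema3C (rhSema3C, a secreted semaphorin) at 300 ng/ml and LX-2 cells treated with PBS, both for 48 h. Each group had 3 samples, which the labels call biological replicates. The labels name no second line or clone, so all values come from the same line in culture medium with fetal bovine serum.

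NFE2L2 encodes NRF2, the main transcription factor of the response to oxidants and electrophiles. In unstressed cells KEAP1 binds NRF2 and, with the CUL3 ubiquitin ligase, marks it for degradation, so NRF2 is controlled largely at the protein level, which RNA sequencing does not measure. When KEAP1 is modified, NRF2 enters the nucleus, pairs with a small MAF protein and binds antioxidant response elements near genes for haem breakdown, quinone reduction, glutathione synthesis, thioredoxin reduction and iron storage. In stellate cells oxidants and iron are known as stimuli of activation, and ferritin is the shell of heavy and light chains in which cells store iron.

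The 6 libraries held between 68267808 and 89245585 counts on genes, and mitochondrial genes took 4.75% to 5.42% of them in PBS and 3.73% to 3.93% in rhSema3C. Of 13 stellate cell and myofibroblast markers 11 passed the filter on low genes, but COL1A2 and DES, which mark such cells, had mean FPKM values of at most 0.130 and 0.0432. The summed FPKM of the list was 1687 to 1737 in PBS and 1336 to 1412 in rhSema3C. Most of this sum was VIM, with a mean of 1035 FPKM in PBS and 834 in rhSema3C. Of the macrophage list, CD68, CD14 and ADGRE1 passed the filter and its sum was 97.7 to 106.6 FPKM in PBS and 69.0 to 75.1 in rhSema3C, while PTPRC, CD163 and MARCO stayed at or below a mean of 0.0297. The hepatocyte, endothelial and cholangiocyte lists had sums of at most 4.18, 1.70 and 14.7 FPKM. ALB had a mean of at most 0.0103, but SERPINA1 of the hepatocyte list passed the filter (2.78 FPKM in PBS and 3.86 in rhSema3C). KDR of the endothelial list passed it too (0.723 and 0.720), as did KRT7 (2.95 and 3.21) and SOX9 (9.94 and 5.45) of the cholangiocyte list. The part of these marker levels in the results below was not tested. In such bulk samples, fewer cells with a transcript and less transcript per cell cannot be told apart.

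The gene for NRF2 was higher and the gene for its repressor lower after rhSema3C, while the enzyme genes of the response moved in both directions or little. With edgeR at a threshold of 0.05 on adjusted p, NFE2L2, GCLC and FTH1 rose and KEAP1, HMOX1, SRXN1 and FTL fell, so 7 of the 10 genes were called, beside 62.3% of all 14178 genes tested (31.7% higher and 30.6% lower). NQO1, GCLM and TXNRD1 were not called. The fall of HMOX1 did not hold under several other settings, as given with its values. No member changed by more than 2-fold, the threshold of the study's methods together with an unadjusted p of 0.05, which 5.54% of all genes passed (3.42% upwards and 2.12% downwards). The count of 0 held with edgeR and with DESeq2. Groups did not overlap for 8 of the 10, of which 3 were higher and 5 lower (the 4 genes called lower and TXNRD1), beside 67.8% of all genes (34.6% higher and 33.3% lower). Over the 10 genes the fold changes had a median of -0.05 on the log2 scale, beside 0.02 over all genes tested. The split between rises and falls depended on the scaling, over all genes as well as over the members. With values rescaled to TPM, which divides each sample by its own sum of FPKM, limma called 6 members higher and 2 lower. Of all 14178 genes tested, 6934 were higher and 2428 lower in that setting. With library size alone 4 members were higher and 3 lower, beside 5654 and 3415 of all genes.

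**Figure D1:**
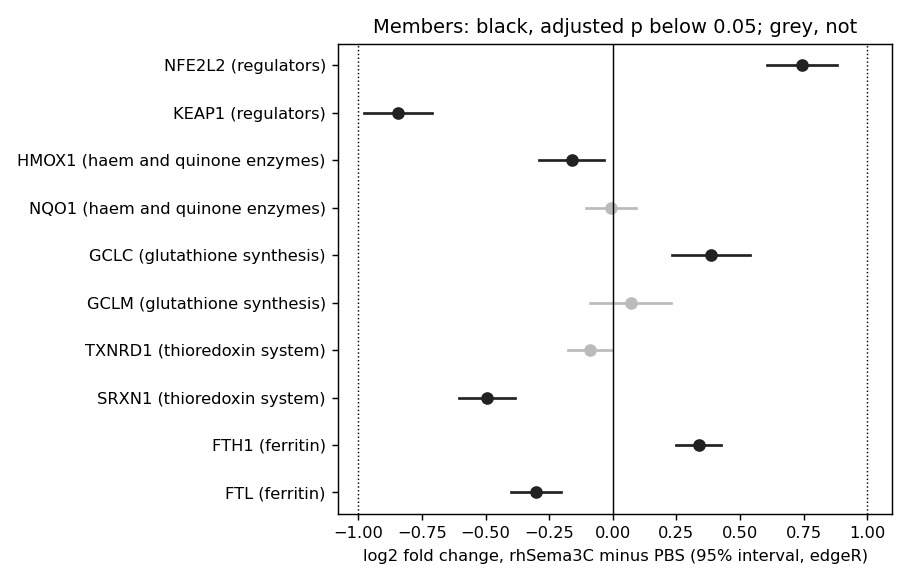
The log2 fold change (rhSema3C minus PBS) of each of the 10 genes from edgeR, with its 95% interval, where black marks an adjusted p below 0.05 and dotted lines mark a 2-fold change. NFE2L2 at 0.74 and KEAP1 at -0.85 lie farthest from 0, and no point passes a 2-fold change.

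Values of single genes are given in CPM, counts scaled to library size with TMM factors, which compare samples for the same gene, and SE is the standard error of a log2 fold change. All 10 genes were well covered, with between 2068 and 848707 counts in any sample. NFE2L2 (ENSG00000116044) lies on the minus strand of chromosome 2 from 177227595 to 177287777 (GRCh38, coordinates of the table). Its level was 38.3, 38.8 and 36.6 CPM in the PBS samples and 58.8, 67.3 and 64.5 CPM in the rhSema3C samples. Every treated sample was above every control sample, and the spread within each group was small beside the gap. The means were 37.9 ± 1.17 and 63.5 ± 4.34 CPM (SD, n = 3 per group), a 1.68-fold rise (log2 0.74, SE 0.06, edgeR adjusted p = 1.6e-06). An unnamed gene on the same strand (ENSG00000213963) overlaps NFE2L2. It held 120, 85 and 61 counts in PBS and 307, 260 and 217 in rhSema3C, in all equal to 4.20% of those of NFE2L2. With its counts added the log2 fold change was 0.77.

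KEAP1 (ENSG00000079999) lies on the minus strand of chromosome 19 from 10486125 to 10503356. It was at 84.8, 99.9 and 91.1 CPM in PBS and at 51.1, 49.9 and 52.5 CPM in rhSema3C. The groups did not overlap, and the treated samples lay closer together than the controls. Mean levels were 91.9 ± 7.55 and 51.2 ± 1.28 CPM (SD, n = 3 in each), 1.80-fold lower after treatment (log2 -0.85, SE 0.06, edgeR adjusted p = 5.3e-07). The change of KEAP1 was larger in size than that of 90.4% of all genes tested, and the same share was 86.8% for NFE2L2.

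Set against each other per length, the level of NFE2L2 was between 0.245 and 0.284 of that of KEAP1 in the PBS samples and between 0.724 and 0.850 in the rhSema3C samples, as ratios of FPKM. The ratio was higher in each treated sample, with a log2 difference of 1.59 (exact permutation test, two-sided, p = 0.1, the smallest that 3 samples against 3 allow). With the lengths behind the FPKM, KEAP1 was the more abundant transcript of the pair in both groups, an order that depends on those lengths, as given with the levels.

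**Figure D2:**
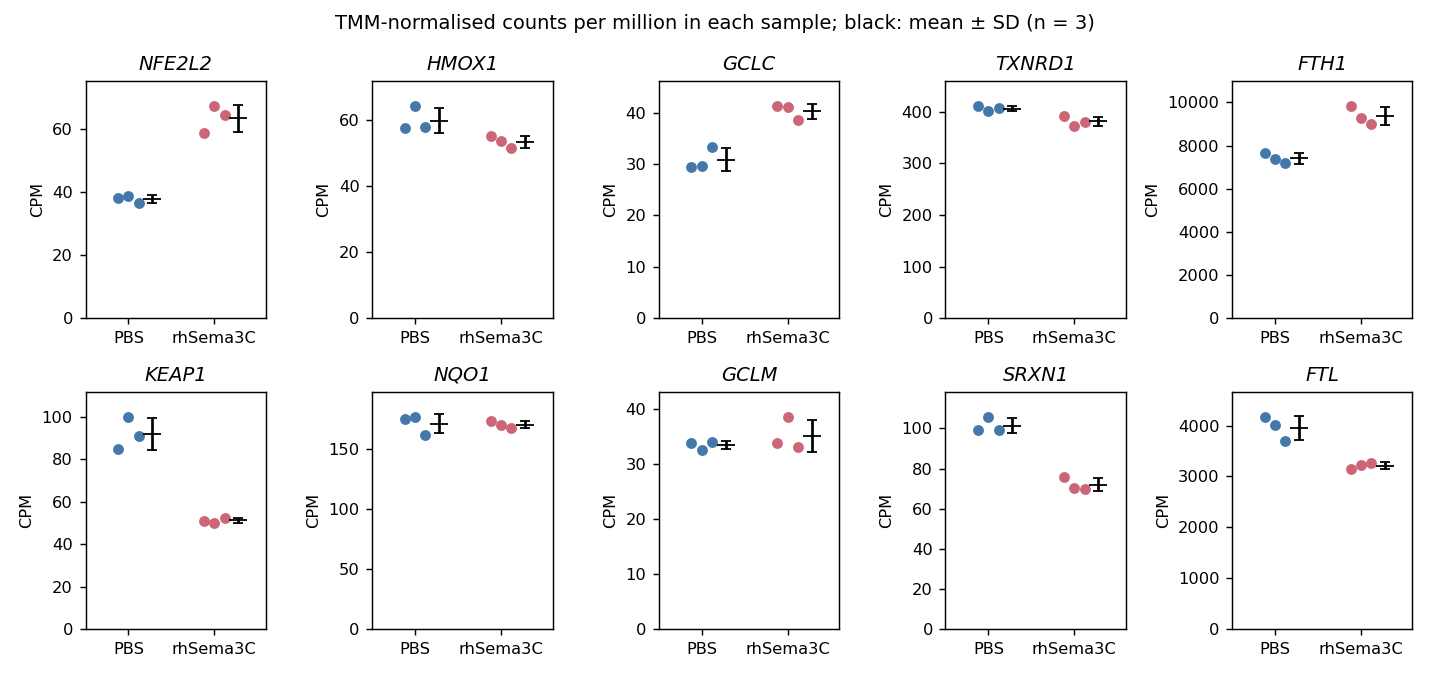
CPM (vertical axes from 0) of each of the 10 genes in the 3 PBS and 3 rhSema3C samples, with the mean ± SD in black beside the points. The groups are apart for NFE2L2, KEAP1, GCLC, SRXN1, FTH1 and FTL, lie close for HMOX1 and TXNRD1, and overlap for NQO1 and GCLM.

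Antioxidant response elements share the core TGACNNNGC. This core was searched on both strands in RefSeq promoter windows (GRCh38.p14) that span 250 bases before to 50 bases after each annotated start. Windows existed for 8 of the 10 genes and not for HMOX1 and FTH1. The core was present for 3 of these 8 genes, KEAP1, GCLM and TXNRD1, and for 16.1% of all 27305 genes with a window. Counted by window, 4 of the 11 windows of the 8 genes held it, as did 13.3% of all 35116 windows. No match in these windows overlapped TGANTCA, the AP-1 core. Elements farther from a start lie outside the windows, and a match is a description of the sequence only. The matches are shown with 30 bases on each side, on the strand of the gene with the core in capitals, because the genes that hold it did not move alike: KEAP1 fell, and GCLM and TXNRD1 did not pass the test.
KEAP1, 54 bases before a start, chr19:10502787-10502855: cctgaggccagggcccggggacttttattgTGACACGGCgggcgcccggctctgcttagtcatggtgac
KEAP1, 31 bases before the same start, chr19:10502764-10502832, core on the opposite strand: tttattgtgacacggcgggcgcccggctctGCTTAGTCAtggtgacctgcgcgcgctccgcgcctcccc
GCLM, 34 bases before the start, chr1:93909426-93909494, core on the opposite strand: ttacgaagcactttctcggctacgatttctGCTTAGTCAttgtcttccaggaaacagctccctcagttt
TXNRD1, 102 bases before a start inside the gene, chr12:104286900-104286968, core on the opposite strand: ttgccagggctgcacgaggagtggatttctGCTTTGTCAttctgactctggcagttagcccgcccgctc
The distance is that of the first base of the match in the window. The second KEAP1 match and the GCLM match hold the same 9 bases. The KEAP1 start is that of a window from 10502722 to 10503021, and the other KEAP1 window, from 10503307 to 10503606, held no core. TXNRD1 had a further pair of matches at its outer start, 99 and 8 bases before it. NFE2L2, NQO1, GCLC, SRXN1 and FTL had none in these windows.

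HMOX1, the inducible haem oxygenase that releases iron and biliverdin from haem, is on chromosome 22 from 35380361 to 35390293 (ENSG00000100292, plus strand). Its level was 57.4, 64.0 and 57.8 CPM in PBS and 55.2, 53.5 and 51.5 CPM in rhSema3C. The treated samples lay just below the controls, with a gap smaller than the spread of the PBS samples. The fitted change was -0.16 on the log2 scale (SE 0.06, edgeR adjusted p = 0.030). The call was lost in 9 of 16 alternatives, and in another, TPM, the sign turned (0.066). Without PBS replicate 2, the highest sample, the change was -0.11 (edgeR adjusted p = 0.12), and the edgeR adjusted p was 0.058 without rhSema3C replicate 2 and 0.11 without rhSema3C replicate 3.

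NQO1, the quinone reductase often used as a readout of NRF2, is on the minus strand of chromosome 16 from 69706996 to 69726668 (ENSG00000181019). It was at 174, 176 and 162 CPM in PBS and at 173, 170 and 167 CPM in rhSema3C. The groups overlapped, and the means of 171 ± 7.97 and 170 ± 2.75 CPM (SD, n = 3 per group) were closer than the spread of the controls. The difference on the log2 scale was -0.01, with a 95% interval from -0.10 to 0.09 (edgeR adjusted p = 0.92). Its sign depended on the scaling, with 0.10 under library size alone, and it was called higher in TPM (0.22, adjusted p = 0.0015 from limma) and with a minimum mean FPKM of 5 (0.10, edgeR adjusted p = 0.048).

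The glutathione pair did not move together. Glutamate-cysteine ligase makes the first and rate-limiting step of glutathione synthesis, with GCLC as the catalytic and GCLM as the modifier subunit. GCLC (ENSG00000001084, chromosome 6 from 53497341 to 53616970, minus strand) was at 29.4, 29.7 and 33.4 CPM in PBS and at 41.2, 41.1 and 38.6 CPM in rhSema3C. All treated samples were higher, although PBS replicate 3 lay nearer to them than the other controls. GCLC rose by 1.31-fold (log2 0.39, SE 0.07, edgeR adjusted p = 0.00056).

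GCLM (ENSG00000023909, chromosome 1 from 93885199 to 93909456, minus strand) was at 33.9, 32.7 and 34.1 CPM in PBS and at 33.9, 38.6 and 33.2 CPM in rhSema3C. The groups overlapped, and only rhSema3C replicate 2 stood above the controls. The difference was 0.07 on the log2 scale (95% interval -0.09 to 0.23, edgeR adjusted p = 0.41), and it became a call with library size alone (0.18, adjusted p = 0.049 from edgeR) and in TPM (0.28, adjusted p = 0.0059 from limma). The ratio of GCLC to GCLM, which no scaling between samples affects, was 0.546, 0.571 and 0.616 in PBS and 0.765, 0.670 and 0.730 in rhSema3C, in FPKM. It was higher in each treated sample by a log2 difference of 0.32 (exact permutation test, two-sided, p = 0.1, again the smallest possible).

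In the thioredoxin branch, TXNRD1 encodes the cytosolic thioredoxin reductase and SRXN1 encodes sulfiredoxin, which restores overoxidised peroxiredoxins. TXNRD1 (ENSG00000198431, chromosome 12 from 104215779 to 104350307, plus strand) was at 410, 401 and 406 CPM in PBS and at 391, 373 and 379 CPM in rhSema3C. The treated samples all lay below the controls, with a gap smaller than the range of the treated samples. Its difference of -0.09 on the log2 scale (SE 0.04) did not pass the test (edgeR adjusted p = 0.062). It passed with DESeq2 (adjusted p = 0.019), with median-of-ratios size factors (adjusted p = 0.042 from edgeR) and without rhSema3C replicate 1 (adjusted p = 0.047 from edgeR), while in TPM its sign turned to a rise of 0.14 (adjusted p = 0.0087 from limma). RPL18AP3, a ribosomal protein pseudogene inside TXNRD1 on the same strand, held counts equal to 6.08% of those of TXNRD1. With the genes that overlap TXNRD1 on its strand added, TXNRD1 was called (-0.10, edgeR adjusted p = 0.044).

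SRXN1 (ENSG00000271303, chromosome 20 from 646615 to 653200, minus strand) fell more clearly. It was at 99.0, 106 and 99.4 CPM in PBS and at 75.9, 70.5 and 69.6 CPM in rhSema3C. No treated sample reached the lowest control. Means were 101 ± 3.72 CPM in PBS and 72.0 ± 3.43 CPM in rhSema3C (SD, n = 3 in each), and SRXN1 was 1.41-fold lower after treatment (log2 -0.49, SE 0.05, edgeR adjusted p = 6.6e-06). It kept its sign and its call in all 16 alternatives, as did NFE2L2, KEAP1 and FTH1, and GCLC did so in the 15 alternatives that tested it.

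The ferritin chains went in opposite directions. FTH1 (ENSG00000167996, chromosome 11 from 61959718 to 61967634, minus strand) encodes the heavy chain, which oxidises iron, and FTL (ENSG00000087086, chromosome 19 from 48965309 to 48966879, plus strand) the light chain, which helps the iron core form. FTH1 was at 7646, 7396 and 7174 CPM in PBS and at 9814, 9282 and 8982 CPM in rhSema3C. FTL was at 4166, 4011 and 3701 CPM in PBS and at 3142, 3229 and 3269 CPM in rhSema3C. For each gene the groups were apart, FTH1 upwards and FTL downwards. On the log2 scale FTH1 rose by 0.34 (SE 0.04, edgeR adjusted p = 2.4e-05) and FTL changed by -0.30 (SE 0.04, edgeR adjusted p = 0.00014). The fall of FTL was no longer called in TPM (-0.07, adjusted p = 0.19 from limma).

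The ratio of FTH1 to FTL, which no scaling between samples affects, was 0.798, 0.801 and 0.842 in PBS and 1.36, 1.25 and 1.19 in rhSema3C, in FPKM. It rose in every treated sample, with a log2 difference of 0.64 (exact permutation test, two-sided, p = 0.1, again the smallest possible). The summed FPKM of both chains was 7729 ± 353 in PBS and 8418 ± 114 in rhSema3C (SD, n = 3 per group), a log2 difference of 0.12 that was 0.25 in TPM. In counts, both genes together took 1.05% to 1.13% of each PBS library and 1.27% to 1.33% of each rhSema3C library, and FTH1 ranked 4 by counts in every PBS sample and 3 in every rhSema3C sample.

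**Figure D3:**
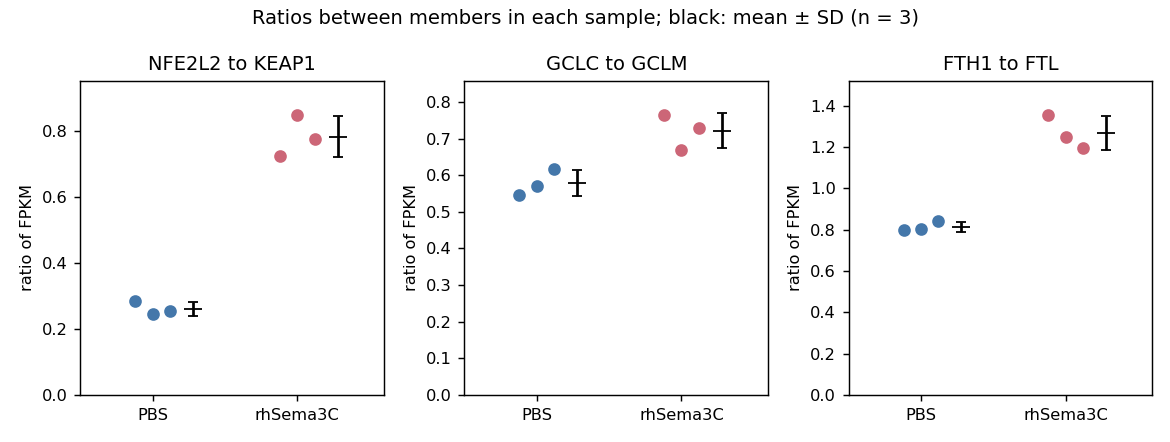
Ratios of FPKM between pairs of members (vertical axes from 0) in the 3 PBS and 3 rhSema3C samples, with the mean ± SD in black. Each ratio is higher in every rhSema3C sample, from a mean of 0.261 to 0.783 for NFE2L2 to KEAP1, from 0.578 to 0.722 for GCLC to GCLM and from 0.814 to 1.27 for FTH1 to FTL.

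Both ferritin mRNAs carry an iron-responsive element before the start codon, a hairpin that iron regulatory proteins bind to block translation when iron is scarce. It was found in the GENCODE 29 transcripts by its loop CAGTGN between 5 pairing bases on either side, with a bulged C, a pattern that 1.11% of 18578 protein-coding transcripts held. The elements are shown because the chains share this control of translation while their mRNA levels moved apart, with the loop in capitals.
FTH1, chr11:61967573-61967602: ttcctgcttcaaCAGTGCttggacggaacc
FTL, chr19:48965335-48965364: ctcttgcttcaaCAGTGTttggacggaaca
Control through this element acts on protein output, which these counts do not show. TFRC, the transferrin receptor gene, carries such hairpins where the bound proteins stabilise its mRNA, and the same search found 4 in its transcript. The search also found 1 in the transcript of SLC40A1, which was not called (0.30, edgeR adjusted p = 0.13), and 0 in that of SLC11A2. It covered 1 transcript per gene and this pattern only, so an element in another SLC11A2 transcript or of another form would be missed. TFRC was at 277 ± 9.72 CPM in PBS and at 330 ± 12.8 CPM in rhSema3C (SD, n = 3 in each), a rise of 0.25 on the log2 scale (SE 0.05, edgeR adjusted p = 0.00058). It was picked out after its values were seen.

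The ferritin counts can include reads of other genes. BEST1, on the other strand, overlaps FTH1 over 4744 bases. It held 42160, 20181 and 26572 counts in PBS and 49510, 58030 and 46942 in rhSema3C, in all equal to 5.96% of those of FTH1. Without the strand setting of the counting, reads of the pair cannot be separated. The table held 14 processed copies of FTH1 and 4 of FTL, with counts of at most 0.515% and 0.0357% of the parent gene. FTH1P2, FTH1P8, FTH1P10, FTH1P20, FTH1P11 and FTH1P7 had mean counts above 100, and of these FTH1P2 was called (log2 0.43, edgeR adjusted p = 0.0014). Of the 9 copies tested no other was called. With BEST1 and all copies added to their parents the log2 fold changes were 0.35 for FTH1 and -0.30 for FTL.

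Per length, the ferritin genes stood far above the other members. In PBS the mean FPKM was 4263 ± 248 for FTL and 3466 ± 109 for FTH1, followed by TXNRD1 at 56.7 ± 0.944, NQO1 at 53.9 ± 2.31, SRXN1 at 37.6 ± 1.17, HMOX1 at 24.4 ± 1.38, KEAP1 at 24.1 ± 1.87, NFE2L2 at 6.26 ± 0.166, GCLM at 5.80 ± 0.165 and GCLC at 3.35 ± 0.253 (SD, n = 3). HMOX1 and KEAP1 overlapped over the PBS samples, and the other neighbours did not. In rhSema3C, FTH1 (4703 ± 199 FPKM) stood above FTL (3715 ± 85.0), NQO1 and TXNRD1 overlapped, and the order of the rest was unchanged, with KEAP1 at 14.4 ± 0.386 FPKM and NFE2L2 at 11.3 ± 0.790 (SD, n = 3). The lengths behind the FPKM matter here: counts and FPKM together imply 2.04 to 2.06 kb for FTH1 and 0.889 to 0.894 kb for FTL, near the 2.03 and 0.878 kb of all annotated exons merged, whereas the longest annotated transcript of FTH1 has 1.23 kb. Scaled to the longest transcript, FTH1 was above FTL in both groups, with a ratio of 1.34 ± 0.0407 in PBS and 2.08 ± 0.137 in rhSema3C (SD, n = 3), and NFE2L2 stood above KEAP1 in rhSema3C (22.3 ± 1.52 against 17.3 ± 0.434 CPM per kb). On that scale GCLC stood above GCLM in both groups, at 8.09 ± 0.583 against 6.91 ± 0.160 CPM per kb in PBS and at 10.6 ± 0.392 against 7.25 ± 0.604 in rhSema3C (SD, n = 3), and HMOX1 stood above SRXN1 in rhSema3C (29.3 ± 1.00 against 26.7 ± 1.27). The difference between groups in each ratio does not depend on the length.

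**Figure D4:**
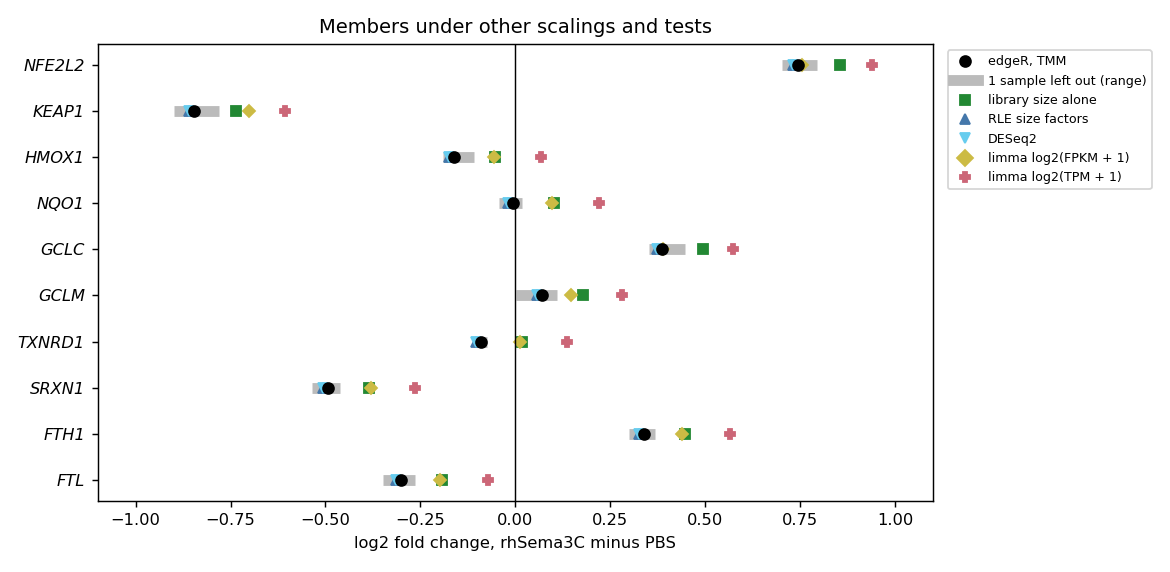
The log2 fold change of each of the 10 genes under other scalings and tests, with a grey bar for the range when 1 sample is left out. NFE2L2, GCLC and FTH1 stay above 0 and KEAP1, SRXN1 and FTL below it in every setting drawn, while HMOX1, NQO1 and TXNRD1 lie on both sides of 0.

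Beyond the 10 members, 6 lists of pathway genes were examined, in which 102 further genes were tested. edgeR called 33 of them higher and 39 lower, beside 31.7% and 30.6% of all genes tested, and their median log2 fold change was -0.04. With library size alone the split was 42 higher and 32 lower, beside 5654 and 3415 of all 14178 genes. In TPM it was 54 higher and 24 lower, beside 6934 and 2428 of all genes. The TPM counts given for each list below have this same background, in which more genes were called higher than lower. Fold changes below are on the log2 scale, from edgeR, with the SE in parentheses.

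Among 12 tested partners and controllers of NRF2, 6 were higher and 4 lower, with a median of 0.04 (8 and 4 in TPM). The related factor gene NFE2L1 rose by 0.95 (0.04). BACH1, which encodes a repressor that competes with NRF2 for its elements, rose by 0.90 (0.07), with 41.7 ± 1.94 CPM in PBS and 78.0 ± 7.98 in rhSema3C (SD, n = 3 in each). RBX1, of the ligase that KEAP1 recruits, rose by 0.26 (0.08). CUL3 was not called with edgeR (-0.05) but was called higher in TPM (0.17, adjusted p = 0.017 from limma). The falls were in PGAM5 (-0.58, 0.07) and DPP3 (-0.52, 0.05), whose proteins bind KEAP1, in the small MAF gene MAFK (-0.56, 0.07) and in SQSTM1 (-0.42, 0.04), which encodes the autophagy receptor that sequesters KEAP1. CUL3 and SQSTM1 were picked out after their values were seen, and MGAT4B on the other strand held counts equal to 18.0% of those of SQSTM1. BACH2 was below the filter.

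Among 26 other tested NRF2 target genes, 8 were higher and 8 lower, with a median of -0.03 (13 and 6 in TPM). The largest rises were in SLC7A11, the cystine transporter gene, with 1.64 (0.10), in PIR with 1.25 (0.17) (2.05 ± 0.208 and 4.89 ± 0.586 CPM in PBS and rhSema3C), and in IDH1, which makes NADPH, with 0.98 (0.04). OSGIN1 fell by 0.73 (0.11), CBR1, a carbonyl reductase gene, by 0.65 (0.05) and TALDO1, of the pentose phosphate pathway, by 0.57 (0.04). MLYCD overlaps OSGIN1 on the same strand and held counts equal to 82.9% of those of OSGIN1. SLC7A11 and PIR passed a 2-fold change upwards with an unadjusted p below 0.05, and no gene of the list did so downwards. AKR1B10 lay at -1.48 (1.18) but was not called (edgeR adjusted p = 0.3), with 0 to 268 counts in a sample. It was picked out after its values were seen. ABCB6, ABCC2, GPX2 and GSTM3 were below the filter.

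Of 15 tested genes of iron uptake, export and control, 6 were higher and 4 lower, with a median of 0.18 (10 and 1 in TPM). FBXL5, whose protein marks an iron regulatory protein for degradation, rose by 0.66 (0.05), the mitochondrial iron importer gene SLC25A37 by 0.52 (0.04) and the iron transporter gene SLC11A2 by 0.47 (0.05). The falls were in PCBP1 (-0.51, 0.04) and PCBP2 (-0.14, 0.04), which encode carriers that deliver iron to ferritin, in SLC25A28 (-0.35, 0.08), a second mitochondrial importer, and in STEAP3 (-0.15, 0.06), an endosomal iron reductase. In TPM PCBP2 and STEAP3 changed sign (0.08 and 0.07), and neither they nor SLC25A28 were called. PCBP2 was picked out after its values were seen. BMP6, CP and HAMP were below the filter, and FTMT and HEPH had no row.

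Of 13 tested haem genes, 1 was higher and 7 were lower, with a median of -0.23, while in TPM 4 were higher and 3 lower. HMOX2, the constitutive haem oxygenase gene, fell by 0.78 (0.07), and UROD, of haem synthesis, fell by 0.52 (0.04). FLVCR1, a haem exporter gene, rose by 0.47 (0.13). NMRAL1 on the other strand held counts equal to 74.6% of those of HMOX2. None passed a 2-fold change.

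Of 21 tested genes of glutathione use and cystine supply, 7 were higher and 9 lower, with a median of -0.07 (10 and 4 in TPM). CHAC1, which encodes a glutathione-degrading enzyme, rose by 1.67 (0.07), SLC7A11 by 1.64 (0.10) (23.5 ± 3.16 and 73.5 ± 7.70 CPM in PBS and rhSema3C), and CTH, which makes cysteine from cystathionine, by 1.63 (0.15). GPX1, a cytosolic glutathione peroxidase gene, fell by 0.87 (0.04) (555 ± 22.2 and 304 ± 4.98 CPM), GPX3 fell by 1.26 (0.24) at low level (3.11 ± 0.942 to 1.30 ± 0.0803 CPM), and GSTP1, a glutathione transferase gene, fell by 0.55 (0.04). These means are with SD and n = 3 per group. CHAC1, SLC7A11 and CTH are also known targets of ATF4. GGT5, MGST1 and OPLAH were below the filter, and GPX7 had no row.

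Among 21 tested genes of thioredoxins, peroxiredoxins and enzymes for superoxide and peroxide, 7 were higher and 9 lower, with a median of -0.05 (12 and 7 in TPM). SESN2 and SESN1, the sestrin genes, rose by 1.58 (0.06) and 0.58 (0.10), and SOD2, the mitochondrial superoxide dismutase gene, rose by 1.21 (0.04) (717 ± 16.3 CPM in PBS and 1656 ± 19.0 in rhSema3C, SD, n = 3 in each). MSRB1, which repairs oxidised methionine, and PRDX2, a cytosolic peroxiredoxin gene, fell by 0.80 (0.07) and 0.78 (0.04). WTAP on the other strand held counts equal to 14.6% of those of SOD2. SESN2 and SOD2 passed a 2-fold change upwards, and 1 gene passed it downwards that is not reported here.

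**Figure D5:**
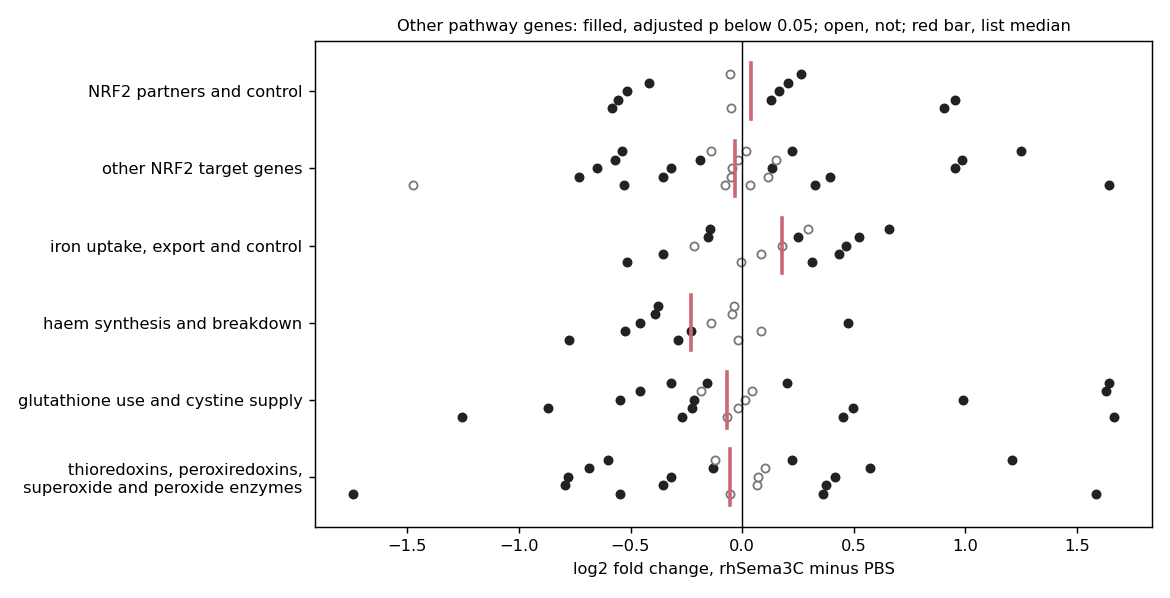
The log2 fold change (rhSema3C minus PBS) of each tested gene in the 6 pathway lists, filled where the adjusted p from edgeR was below 0.05, with a red bar at the list median. All lists hold called genes on both sides of 0, and the medians run from -0.23 for haem genes to 0.18 for iron genes.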

How the data were processed

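RNA from LX-2 cells was sequenced on an Illumina NovaSeq instrument. The table that the authors deposited gives, for each gene, raw counts in whole numbers and FPKM, which the authors scaled to gene length and library size. The study's methods name Cufflinks and cuffmerge. Aligner, counter, strandedness and genome build are not given in the sources used here. Gene IDs matched GENCODE 29 (GRCh38) for 32887 of 33900 genes, and 60.1% of these had the same start and end.

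After genes below a mean FPKM of 0.5 were left out, counts of 14178 genes were compared with edgeR's quasi-likelihood test with TMM factors, without covariates, and adjusted by the Benjamini-Hochberg method over all genes tested. Ratios of FPKM were compared by exact permutation over samples. Samples within a group were further apart than counting noise allows (chi-square per degree of freedom 13.5 to 22.1). The labels call them biological replicates without naming separate cultures. The p-values from edgeR therefore set the difference between groups against the spread between these samples within a group. Molecular identifiers are not mentioned in the sources used here.

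The members, lists and tests were chosen with earlier results of these data known. The text names all members and, for each list, the 3 largest rises and 3 largest falls called, genes below the filter, and ferritin pseudogenes with a mean count above 100. Some genes that this rule names are not reported here. Alternatives covered scaling, test, filter, unit, pseudocount, the replicate number as a block and leaving out single samples. Summing overlapping and copied genes and the longest-transcript length were added after the data were seen. edgeR 4.0.16, DESeq2 1.42.0 and limma 3.58.1 ran under R 4.3.3.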

Additional observations from a re-analysis of the deposited data

How the results depend on the processing

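NFE2L2, KEAP1, SRXN1 and FTH1 kept their sign and call in all 16 alternatives, GCLC in 15 (it is below a mean FPKM of 5), and FTL in 15 of 16. Rescaling to TPM changed most. In TPM 6 members were higher and 2 lower, as were 54 and 24 other pathway genes and 6934 and 2428 of all genes. HMOX1 turned to 0.066, NQO1 to 0.22 and TXNRD1 to 0.14. The summed ferritin level differed by 0.25 instead of 0.12 on the log2 scale. The median of all genes moved from 0.02 to 0.23 in TPM and to 0.13 with library size alone, and relative to it HMOX1 was at -0.16 and -0.18, NQO1 at -0.01 and -0.03, and TXNRD1 at -0.09 and -0.11. NQO1 was also above 0 with library size alone (0.10), a minimum mean FPKM of 5 (0.10, called), limma on log2(FPKM + 1) and log2(FPKM + 0.1) (0.10 in each) and ranged from -0.044 to 0.017 with single samples left out. TXNRD1 was above 0 with library size alone (0.018), with a minimum mean FPKM of 5 (0.015) and with log2(FPKM + 1) and log2(FPKM + 0.1) (0.012 in each). With each sample left out, 3 members were higher and 3 to 5 lower, and 29 to 31 other pathway genes were higher and 37 to 41 lower. The log2 differences then ranged from 0.59 to 0.68 for FTH1 to FTL, 0.28 to 0.37 for GCLC to GCLM, 1.53 to 1.65 for NFE2L2 to KEAP1, and 0.09 to 0.16 for the ferritin sum. Same-numbered samples hardly deviated together (correlations 0.01, 0.08 and -0.03), and PBS replicate 1 was closest to rhSema3C replicate 3. The highest correlation of all, 0.08, was that of the samples numbered 2. With 3 samples per group such values cannot show whether same-numbered samples were handled together. With the replicate number as a block, 4221 of all genes were higher and 4120 lower, against 4490 and 4339, and 3 members were higher and 3 lower, HMOX1 being the call lost (-0.16, adjusted p = 0.055 from edgeR). The cause of these shifts was not tested.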
